A study of Mus musculus with 5 samples.

Results

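The RNA levels of 9 genes of the mitochondrial pathway of apoptosis were described in neural precursor cells (NPCs) cultured from the subventricular zone of adult mice. The genes were taken by name from the gene tables of the 5 libraries, and they are 9 of 46078 genes listed there. They fall into 4 roles: the anti-apoptotic genes Mcl1, Bcl2l1, Bcl2l2 and Bcl2, the pore-forming gene Bak1, the BH3-only genes Bcl2l11 and Bid, and the apoptosome genes Apaf1 and Casp9. All libraries came from C57BL/6 mice (C57BL/6j in the methods of the study) labelled as female, aged 5 to 8 weeks and carrying no mutation, whereas the methods give an older age. The cells were grown on PDL-coated plates and received PBS as a sham exposure, and RNA was taken after 1 h (2 libraries) or after 8 h (3 libraries). The groups therefore differ by label only in the time after PBS, and libraries of cells given hydrogen peroxide were not analysed here. The statistical methods of the study count a single animal as 1 biological replicate of subventricular zone cells, while the labels do not say which library came from which animal.

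The mitochondrial pathway of apoptosis is controlled by proteins of the BCL2 family. Anti-apoptotic members bind and restrain the pore formers BAX and BAK1, and BH3-only proteins, which respond to stress or to loss of survival signals, either block the anti-apoptotic members or activate the pore formers directly. An open pore releases cytochrome c, which assembles APAF1 into the apoptosome, and the apoptosome activates caspase 9, which then cleaves the executioner caspases. Neural stem cells of the adult forebrain produce more progeny than survive, and loss of cells by apoptosis is part of normal neurogenesis in this region.

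The 7 BCL2 family genes share the BH3 core, part of a short helix, and it is shown because it is the feature these genes have in common. Each coding sequence has 33 bases, was read from GENCODE vM21 on GRCm38 in the direction of the gene, lies within 1 exon and had 1 match in its protein. Capitals mark the codon of the first leucine or methionine and the neighbouring glycine and aspartate codons.
Mcl1: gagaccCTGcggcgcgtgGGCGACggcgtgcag
Bcl2l1: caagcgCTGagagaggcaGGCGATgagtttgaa
Bcl2l2: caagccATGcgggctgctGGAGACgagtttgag
Bcl2: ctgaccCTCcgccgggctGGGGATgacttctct
Bak1: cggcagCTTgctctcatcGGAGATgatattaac
Bcl2l11: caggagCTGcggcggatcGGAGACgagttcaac
Bid: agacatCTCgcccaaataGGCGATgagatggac
The 4 anti-apoptotic cores lie at chr3:95659430-95659462 (plus strand), chr2:152829697-152829729 (minus strand), chr14:54884511-54884543 (plus strand) and chr1:106712575-106712607 (minus strand), in the order printed. That of Bak1 lies at chr17:27022531-27022563 (minus strand), that of Bcl2l11 at chr2:128147144-128147176 (plus strand) and that of Bid at chr6:120897289-120897321 (minus strand). The cores were located by a pattern of leucine or methionine followed by the marked glycine and aspartate, so each of them holds these residues by selection. Bcl2l2 is the member with methionine in place of leucine at the first marked codon.

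The libraries did not form a uniform set. The sample names carry identifiers in 2 number series of unknown meaning, and 8 h replicate 14 shares series 1 with both 1 h libraries while 8 h replicates 13 and 15 form series 2. The X-inactivation transcript Xist was between 0.0285 and 0.0611 TPM in the series 1 libraries and at 165 and 200 TPM (199.7) in the series 2 libraries, and 4 Y-linked genes summed to between 138 and 181 TPM in series 1 and to at most 0.0253 TPM in series 2, so the series 1 libraries go against the label female. Mitochondrial genes took between 10.7% and 11.1% of the TPM in series 1 and 6.23% and 6.30% in series 2. All 10 neural stem and precursor markers averaged 1 TPM or more, and they summed to 11101 and 11630 TPM at 1 h and to 11080, 13174 and 14267 TPM in the 8 h replicates 14, 13 and 15. All 5 neuron markers (203 to 457 TPM summed), all 4 astrocyte markers (486 to 822 TPM) and 5 of 6 markers of the oligodendrocyte lineage (606 to 799 TPM) passed the same level, against 0 of 5 microglia markers (0.461 to 1.47 TPM), among which Aif1 and Tmem119 were listed at 0. Of the endothelial markers 2 of 4 passed it, and of the ependymal markers 1 of 3. Map2 (173 to 405 TPM) made up most of the neuron sum in every library. Aldh1l1 (455 to 724 TPM) made up most of the astrocyte sum. Gfap was between 1.81 and 4.35 TPM in series 1 and at 26.0 and 47.2 TPM in series 2. Because series and time overlap in part, the difference of each of the 9 genes is also given for 8 h replicate 14 against the 1 h libraries, which lie within series 1. Replicate and series of the 8 h TPM values follow the names of their tables, which the deposited counts described below do not match. In these bulk samples, fewer cells of a type and less RNA per cell cannot be told apart.

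Levels are given in TPM, which is scaled by transcript length and to the same total in every library, so that genes can be compared with each other. All 9 genes passed the filter used for testing, a mean of 1 TPM or more over the 5 libraries. Mcl1 was the highest at a mean of 161 TPM, above 92.7% of the genes that passed this level, and Bid was the lowest at the 21.6th percentile. Between them stood Bak1 at the 80.6th, Bcl2l1 at the 75.9th, Apaf1 and Bcl2l2 both at the 53.3rd, Bcl2 at the 39.7th, Casp9 at the 32.0th and Bcl2l11 at the 30.5th percentile. The ranges of neighbours in this order failed to overlap only for Mcl1 above Bak1 and for Bcl2l11 above Bid. The other 6 pairs of neighbours overlapped, although Bcl2 was above Casp9 in 5 of 5 libraries. Mean per-base coverage was lowest for Bid, at 7.48 to 11.4, and highest for Mcl1, at 377 to 531, so the level of Mcl1 rests on deeper coverage.

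**Figure D1:**
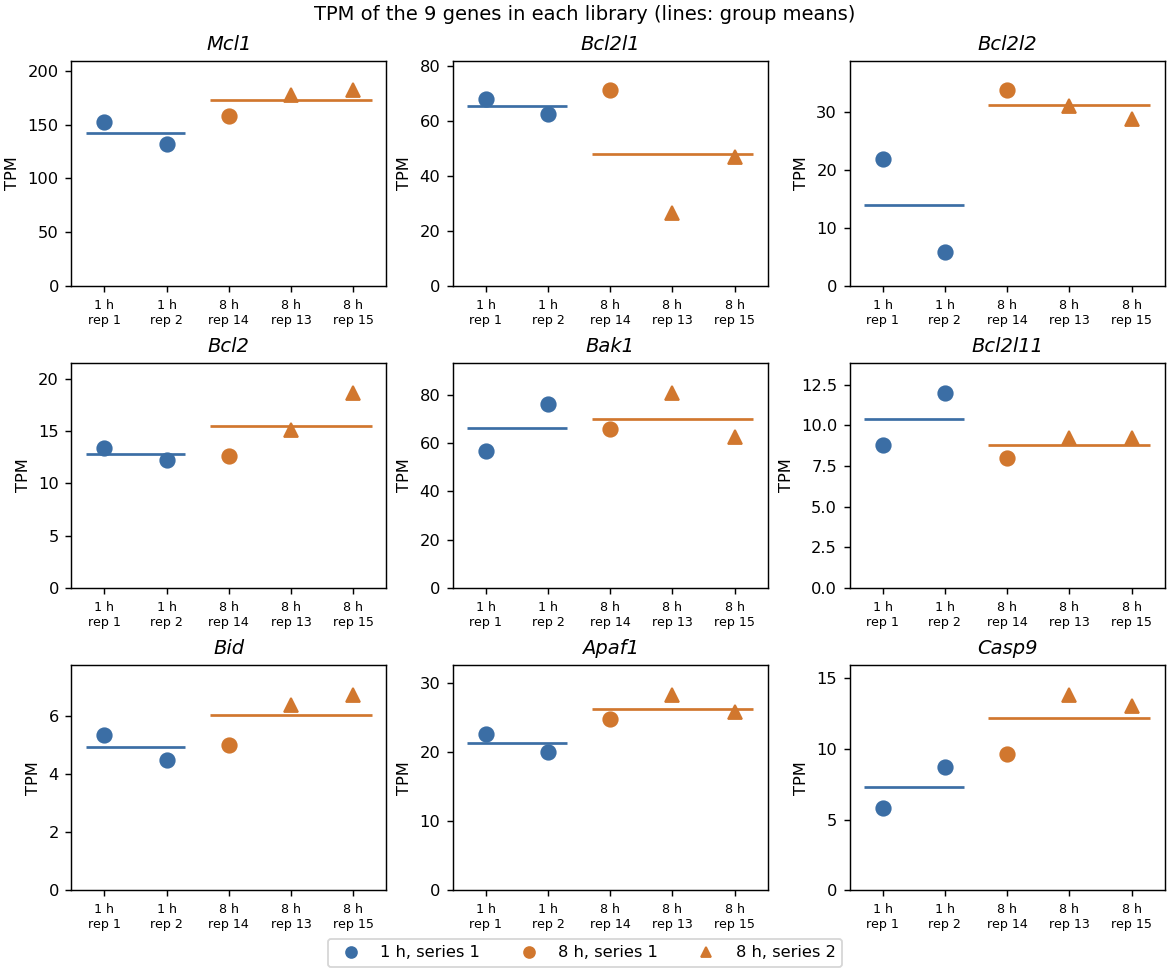
TPM (vertical axes, from 0) of the 9 genes in each library, with 1 h libraries in blue, 8 h libraries in orange, circles for identifier series 1, triangles for series 2 and lines at the group means. Bcl2l2 is lowest in 1 h replicate 2 at 5.82 TPM, and Bcl2l1 is lowest in 8 h replicate 13 at 26.6 TPM.

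The comparison of 8 h with 1 h called none of the 9 genes. Calls were made with limma on log2(TPM + 1) where the adjusted p did not exceed 0.05 and the log2 fold change exceeded 1 in either direction, and 6 of 13870 genes met both (0.0433%). Adjusted p-values of the 9 genes lay between 0.369 and 0.832. Without adjustment, 2 of the 9 (Bcl2l2 and Casp9) had p under 0.05, against a background of 12.3% of all genes tested. At 8 h, 7 genes had higher and 2 had lower fitted values, and the median difference of the 9 was 0.25 on the log2(TPM + 1) scale. Over all genes tested the median was 0.10 and 65.9% of genes were higher at 8 h, and median-ratio scaling moved that median to -0.0045. Relative to the median of all genes, the median of the 9 was 0.15 higher. No 8 h value fell within the 1 h range or below it for Mcl1, Bcl2l2, Apaf1 and Casp9, a pattern of no overlap found for 23.7% of all genes in that direction and 33.1% in either direction. Fold changes on this scale understate the change of low genes.

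Among the anti-apoptotic genes, Mcl1 encodes a protein of short life that holds BAK1 and BIM, the product of Bcl2l11. Mcl1 (ENSMUSG00000038612, chr3:95658788-95663176, plus strand) was at 153 and 132 TPM in the 1 h replicates 1 and 2, and at 158, 178 and 182 TPM in the 8 h replicates 14, 13 and 15. All 8 h values were above both 1 h values. The means were 142 ± 14.9 TPM (SD, n = 2) at 1 h and 173 ± 12.5 TPM (SD, n = 3) at 8 h. The difference was 0.28 ± 0.11 (SE) on the log2(TPM + 1) scale, with an adjusted p of 0.403 by limma. Within series 1 it was 0.16.

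Bcl2l1 encodes BCL-XL, the anti-apoptotic protein on which many maturing neurons depend. Bcl2l1 (ENSMUSG00000007659, chr2:152780668-152831728, minus strand) was at 68.0 and 62.8 TPM in the 1 h replicates 1 and 2, and at 71.2, 26.6 and 46.9 TPM in the 8 h replicates 14, 13 and 15. Both series 2 libraries were below every series 1 library, while 8 h replicate 14 was above both 1 h libraries, so the groups overlapped. The means were 65.4 ± 3.67 TPM (SD, n = 2) at 1 h and 48.2 ± 22.4 TPM (SD, n = 3) at 8 h. The difference of -0.54 ± 0.38 (SE) did not pass the test (adjusted p = 0.524, limma; 95% interval -1.47 to 0.39). Its sign turned with the libraries used, from -0.87 without 8 h replicate 14 to 0.12 within series 1. Time and series cannot be told apart for this gene, since the low values are those of series 2.

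Bcl2 is the founding member of the family, first known from lymphoma. Bcl2 (ENSMUSG00000057329, chr1:106538178-106714274, minus strand) was at 13.4 and 12.2 TPM in the 1 h replicates 1 and 2, and at 12.6, 15.1 and 18.7 TPM in the 8 h replicates 14, 13 and 15. The value of 8 h replicate 14 lay between those of the 1 h libraries, and both series 2 values were higher. The difference was 0.24 ± 0.18 (SE; adjusted p = 0.549, limma), and within series 1 it was -0.019.

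Bcl2l2 encodes BCL-W, a close relative of BCL-XL with roles in neurons and in sperm formation. Bcl2l2 (ENSMUSG00000089682, chr14:54883377-54888234, plus strand) was at 21.9 and 5.82 TPM in the 1 h replicates 1 and 2, and at 33.6, 30.9 and 28.7 TPM in the 8 h replicates 14, 13 and 15. The 8 h values lay close together and above both 1 h values, which differed from each other by more than the 8 h libraries did. The means were 13.8 ± 11.3 TPM (SD, n = 2) at 1 h and 31.1 ± 2.46 TPM (SD, n = 3) at 8 h. The difference, 1.36 ± 0.48 (SE), was the largest among these genes and did not pass the test (adjusted p = 0.380 by limma, 95% interval 0.19 to 2.52). Within series 1 it was 1.47. It was 0.49 without 1 h replicate 2 and 2.23 without 1 h replicate 1, so its size depends on which 1 h library is used.

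Bcl2l2 overlaps an annotated readthrough gene, Gm20521 (ENSMUSG00000092232, chr14:54883441-54898137, plus strand), which joins Bcl2l2 to the next gene downstream, Pabpn1, the nuclear poly(A)-binding protein gene. Of its 1245 exonic bases, 594 in 3 exons are shared with Bcl2l2, 651 in 6 exons are shared with Pabpn1, and 0 belong to it alone. A read in these bases can be given to either gene, and Gm20521 differs from both neighbours only in the splice junction that joins them, after the last base shared with Bcl2l2, at position 54884813 of chromosome 14. The 20 bases on each side of that junction are shown because the transcripts part there, with capitals for the bases after it, which begin at position 54885384 in the Bcl2l2 transcript and 54894848 in the readthrough transcript.
Bcl2l2 transcript: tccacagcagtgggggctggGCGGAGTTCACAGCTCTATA
Gm20521 transcript: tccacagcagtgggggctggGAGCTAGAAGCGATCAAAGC
The shared bases make up 13.3% of the 4462 exonic bases of Bcl2l2. Gm20521 was at 7.57 and 4.99 TPM in the 1 h replicates 1 and 2 and was listed at 0 in all 3 libraries of 8 h. It was 1 of the 6 genes called (adjusted p = 0.0385, limma). That call was kept with median-ratio scaling and without 8 h replicate 14, and it was lost when any other single library was left out, with pseudocount 0.1, without a filter on low TPM, with the series as a term and within series 1. With Gm20521 added, the Bcl2l2 locus was at 29.4 and 10.8 TPM at 1 h and at 33.6, 30.9 and 28.7 TPM at 8 h. The groups then overlapped, and the difference fell from 1.36 to 0.76 ± 0.38 (SE; adjusted p = 0.437, limma). Pabpn1 was at 130 TPM (129.9) and 117 TPM at 1 h and at 172, 159 and 162 TPM at 8 h, a difference of 0.41 ± 0.096 (SE) that did not pass the test (adjusted p = 0.291, limma).

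**Figure D2:**
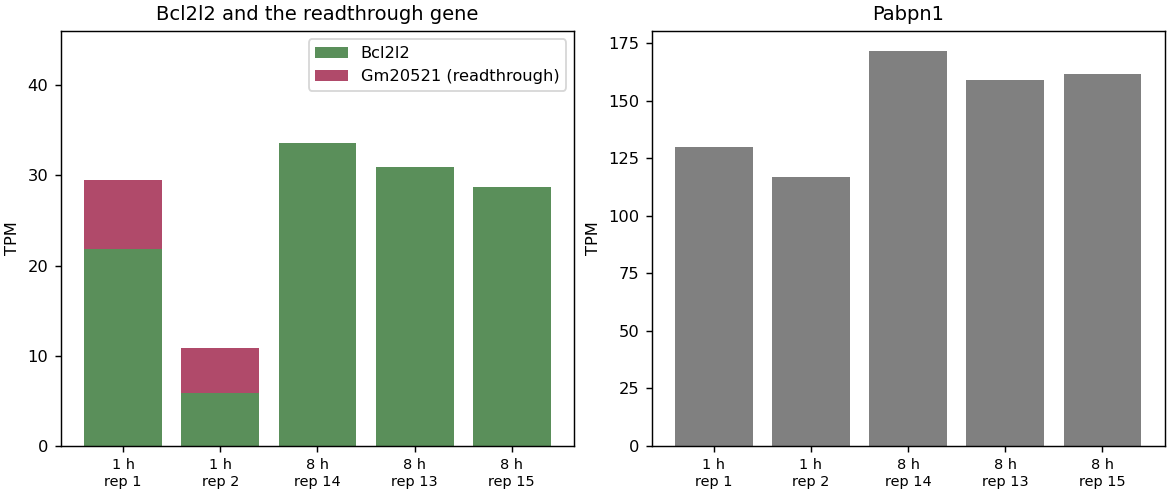
TPM (vertical axes, from 0) per library of Bcl2l2 stacked with the readthrough gene Gm20521 (left) and of the downstream gene Pabpn1 (right). Gm20521 has values only in the 1 h libraries, at 7.57 and 4.99 TPM, and the stacked level of 1 h replicate 1, 29.4 TPM, lies among the 8 h levels.

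The 4 anti-apoptotic genes summed to 256 and 213 TPM at 1 h and to 276, 250 (250.2) and 276 TPM in the 8 h replicates 14, 13 and 15, so the groups overlapped. Mcl1 made up the largest share in every library, from 57.4% to 71.0%. The share of Bcl2l1 was between 25.8% and 29.5% in the 3 libraries of series 1 and was 10.6% and 17.0% in the series 2 libraries. Accordingly Mcl1 exceeded Bcl2l1 by 2.10 to 2.25 times in series 1 and by 6.68 and 3.88 times in series 2. The share of Bcl2l2 was smallest, at 2.74%, in 1 h replicate 2 and largest, at 12.4%, in 8 h replicate 13, and Bcl2 stayed between 4.56% and 6.76%. These are descriptions of RNA levels, with no test.

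**Figure D3:**
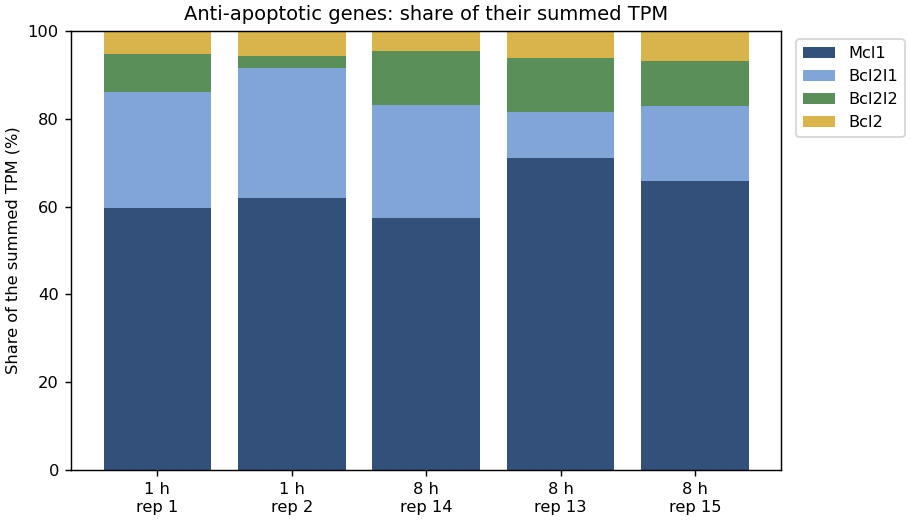
Share (vertical axis, %) of Mcl1, Bcl2l1, Bcl2l2 and Bcl2 in their summed TPM, one stacked bar per library. The Bcl2l1 share is smallest in the 8 h replicates 13 and 15, at 10.6% and 17.0%.

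Bak1 encodes the pore former that sits in the outer mitochondrial membrane in healthy cells. Bak1 (ENSMUSG00000057789, chr17:27019810-27029009, minus strand) was at 56.7 and 76.1 TPM in the 1 h replicates 1 and 2, and at 65.8, 81.0 and 62.7 TPM in the 8 h replicates 14, 13 and 15. The ranges of the groups overlapped, and the means were 66.4 ± 13.7 TPM (SD, n = 2) and 69.8 ± 9.77 TPM (SD, n = 3). The difference of 0.078 ± 0.17 (SE) was the smallest of the 9 genes (adjusted p = 0.832, limma), its 95% interval ran from -0.35 to 0.50, and its sign turned with median-ratio scaling (-0.035). Within series 1 it was 0.0027. Bax, which encodes the other main pore former, was 6.69 to 9.57 times higher than Bak1, at 441 to 592 TPM.

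The BH3-only genes were both low. Bcl2l11 encodes BIM, which binds all anti-apoptotic members. Bcl2l11 (ENSMUSG00000027381, chr2:128126038-128162547, plus strand) was at 8.77 and 12.02 TPM in the 1 h replicates 1 and 2, and at 8.01, 9.21 and 9.20 TPM in the 8 h replicates 14, 13 and 15. The groups overlapped, with 1 h replicate 2 the highest. The difference was -0.20 ± 0.17 (SE; adjusted p = 0.583, limma), and it was 0.0030 without 1 h replicate 2 and -0.32 within series 1.

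Bid encodes a protein that caspase 8 cleaves, which links the death receptors to mitochondria. Bid (ENSMUSG00000004446, chr6:120891930-120916853, minus strand) was at 5.36 and 4.48 TPM in the 1 h replicates 1 and 2, and at 5.02, 6.40 and 6.74 TPM in the 8 h replicates 14, 13 and 15. Both series 2 libraries were above all of series 1, and 8 h replicate 14 lay between the 1 h values. The difference was 0.25 ± 0.18 (SE; adjusted p = 0.535, limma) with all libraries and 0.028 within series 1. Bcl2l11 exceeded Bid by 1.37 to 2.68 times, in 5 of 5 libraries.

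Apaf1 encodes the scaffold of the apoptosome. Apaf1 (ENSMUSG00000019979, chr10:90989311-91082770, minus strand) was at 22.6 and 19.96 TPM in the 1 h replicates 1 and 2, and at 24.7, 28.3 and 25.8 TPM in the 8 h replicates 14, 13 and 15. Every 8 h value was above every 1 h value. The means were 21.3 ± 1.83 TPM (SD, n = 2) and 26.3 ± 1.83 TPM (SD, n = 3). The difference was 0.29 ± 0.12 (SE; adjusted p = 0.403, limma), and it was 0.21 within series 1.

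Casp9 encodes the initiator caspase that the apoptosome activates. Casp9 (ENSMUSG00000028914, chr4:141793612-141815976, plus strand) was at 5.85 and 8.71 TPM in the 1 h replicates 1 and 2, and at 9.62, 13.9 and 13.0 TPM in the 8 h replicates 14, 13 and 15. The groups did not overlap, but 8 h replicate 14 was nearer to 1 h replicate 2 than to the other 8 h libraries. The means were 7.28 ± 2.02 TPM (SD, n = 2) and 12.2 ± 2.24 TPM (SD, n = 3). The difference of 0.68 ± 0.23 (SE) had the smallest adjusted p among these genes (0.369, limma; 95% interval 0.12 to 1.23). Over 10 alternatives its adjusted p ran from 0.0326 to 0.796, and the lowest was without 8 h replicate 14, where the difference was 0.82 and short of the fold threshold. Within series 1 it was 0.38. Apaf1 exceeded Casp9 by 1.98 to 3.85 times.

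**Figure D4:**
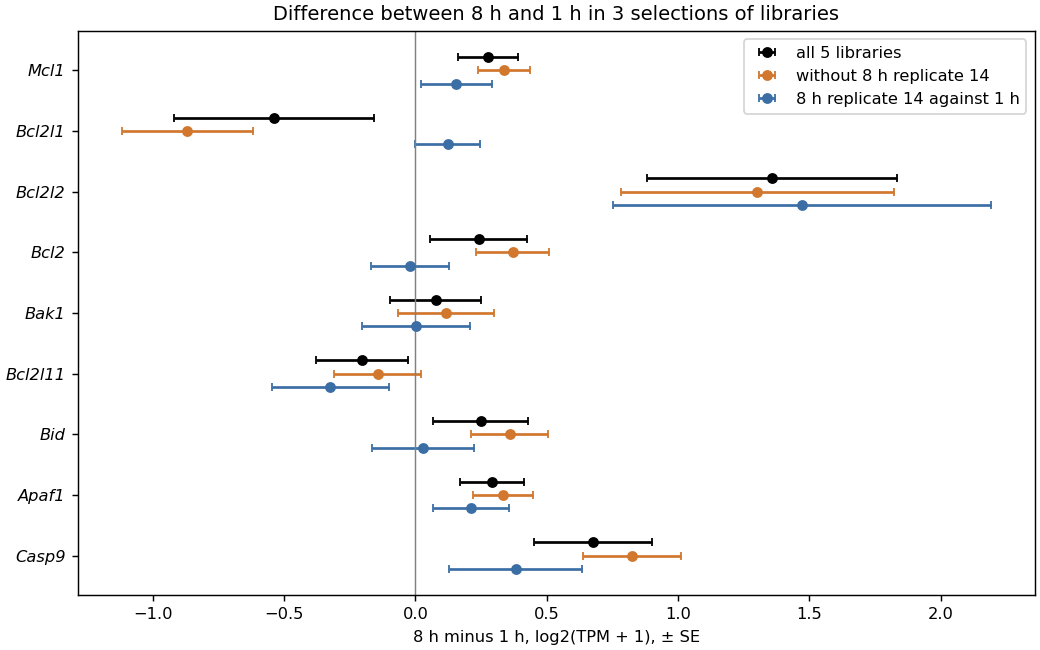
Difference between 8 h and 1 h (horizontal axis, log2(TPM + 1), points with SE bars from limma) of the 9 genes with all libraries (black), without 8 h replicate 14 (orange) and for 8 h replicate 14 against the 1 h libraries (blue). Bcl2l1 moves from -0.87 to 0.12 with the libraries used, while Bcl2l2 lies at 1.36 with all libraries and 1.47 within series 1.

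A second measure was the deposited count table, whose columns carry the names of the same libraries. It holds Bcl2l1, Mcl1, Bcl2l11, Bid, Apaf1 and Casp9 but not Bcl2, Bcl2l2 or Bak1. None of its 3 columns for 8 h matched the TPM table of the same name closely. Over 7470 genes, with a match taken as a difference of at most 0.1 log2, the column named 8 h replicate 13 matched the table of 8 h replicate 14 for 77.7% of genes and its own table for 24.3%, the column named 8 h replicate 15 matched the table of 8 h replicate 13 for 77.7% and its own for 40.4%, and the best match of the column named 8 h replicate 14 was 38.5%, with 1 h replicate 2, against 24.3% for its own table and 20.6% for that of 8 h replicate 15. The names were used as given, so series and single 8 h replicates are uncertain in the counts. For the column named 8 h replicate 14 the group rests on its name alone. The mismatch does not show whether the columns or the TPM tables carry the wrong names, so series and single 8 h replicates are uncertain in TPM too. The counts and the TPM tables may therefore not cover the same 8 h libraries, which limits any contrast between them. By edgeR's quasi-likelihood test, 0 of the 6 genes and 0 of all 7590 genes tested (0%) were called. Before adjustment, p under 0.05 was found for 0 of the 6 and for 199 of all genes (2.62%) by edgeR, and DESeq2 and limma-voom called 0 genes with 227 and 178 below that level.

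Casp9 was the gene of the 6 whose counts did not overlap between groups and were higher at 8 h, beside 11.6% of all genes. As CPM, the counts scaled to a common column total, Casp9 was at 24.9 and 25.8 in the 1 h replicates 1 and 2, and at 36.0, 27.5 and 35.8 in the columns named 8 h replicates 14, 13 and 15. The difference was 0.36 ± 0.16 (SE) on the log2 scale (adjusted p = 0.966, edgeR), against 0.68 in the TPM tables. The 1 h values of Casp9 were nearly equal in CPM, whereas they were 5.85 and 8.71 in TPM, so the spread of this gene at 1 h depends on the table.

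Bcl2l11 differed in sign between the tables. It was at 39.2 and 34.8 CPM in the 1 h replicates 1 and 2, and at 75.7, 24.7 and 32.8 CPM in the columns named 8 h replicates 14, 13 and 15. The difference of 0.23 ± 0.46 (SE; adjusted p = 0.972, edgeR) rests on the column that matched no table, and it was -0.38 without it. The other 4 genes differed by -0.12 (Bcl2l1), 0.025 (Mcl1), 0.31 (Bid) and 0.041 (Apaf1), with adjusted p of at least 0.966 by edgeR. Bcl2l1 was at 137 and 129 CPM at 1 h and at 143, 138 and 94.4 CPM in the columns named 8 h replicates 14, 13 and 15, so 1 column was low.

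The genes around these 9 in the pathway were taken from a list of 50, of which 41 had a mean TPM of at least 1. None of the 41 was called, 31 were higher and 10 lower at 8 h, and the median difference was 0.14 beside 0.10 over all genes. Before adjustment, 3 of the 41 reached p under 0.05, beside 12.3% of all genes. They were Birc2, which encodes the caspase regulator and ubiquitin ligase cIAP1 (0.46 ± 0.12, adjusted p = 0.309), Tnfrsf10b, which encodes a death receptor for TRAIL (0.34 ± 0.13, adjusted p = 0.390), and Aifm1, which encodes the mitochondrial apoptosis-inducing factor (0.31 ± 0.12, adjusted p = 0.402), each with its SE and by limma. Birc2 was at 16.3 and 15.0 TPM in the 1 h replicates 1 and 2 and at 20.6, 21.4 and 23.7 TPM in the 8 h replicates 14, 13 and 15, with no overlap.

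By role, the differences were small and mostly positive, as were those of all genes. All 5 of the other caspases had values above 0 (median 0.22), as did all 8 mitochondrial proteins (median 0.10) and all 4 executioner substrates (median 0.15). In the death receptor arm 4 of 7 were above 0 (median 0.028). Of the 3 genes of MCL1 turnover 1 was above and 2 were below (median -0.34). The caspase inhibitors had the largest median of these roles (0.32), with 3 of 4 above 0. Of the other BH3-only genes 3 of 4 were above 0 (median 0.23). So were 2 of 4 other BCL2-related genes (median 0.043) and 1 of 2 other pore-forming genes (median 0.14). Vdac1, a channel of the outer mitochondrial membrane, led the mitochondrial genes at 369 to 459 TPM. Parp1, a nuclear substrate of the executioner caspases, was at 110 (109.9) to 167 TPM, and Tnfrsf1a, the receptor for TNF, at 92.0 to 157 TPM. Bnip3l, a mitophagy receptor, was at 56.1 to 67.2 TPM, and Bad, a BH3-only gene governed by survival signals, at 26.4 to 37.8 TPM. HUWE1 is a ubiquitin ligase that acts on MCL1, and Huwe1 differed by -0.34 ± 0.22 (SE; adjusted p = 0.498, limma). Huwe1 was at 120.1 and 117.4 TPM in the 1 h replicates 1 and 2, and at 126.8, 75.2 and 85.3 TPM in the 8 h replicates 14, 13 and 15. Thus 8 h replicate 14 was above both 1 h libraries, and the low values were those of series 2. Both genes of MCL1 turnover that were lower at 8 h had their lowest values in the series 2 libraries. Bcl2a1a, Bcl2a1b and Bcl2a1d, near-identical copies of an anti-apoptotic gene of blood cells, were listed at 0 in all libraries, and Bcl2l10 did not exceed 0.0861 TPM.

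Birc5, which encodes survivin, a protein of dividing cells, was at 43.6 and 54.3 TPM in the 1 h replicates 1 and 2, at 41.0 TPM in 8 h replicate 14, and at 110 (109.6) and 123 TPM in the 8 h replicates 13 and 15. It was high in series 2 and low in series 1, and 8 h replicate 14 was the lowest library. The difference of 0.75 ± 0.47 (SE; adjusted p = 0.490, limma) became 1.24 ± 0.13 without 8 h replicate 14, where Birc5 was the only gene of the list called (adjusted p = 0.00473, limma). Top2a, a marker of dividing cells, was between 147 and 161 TPM in series 1 and at 324 and 376 TPM in series 2, and its part in this difference was not tested.

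**Figure D5:**
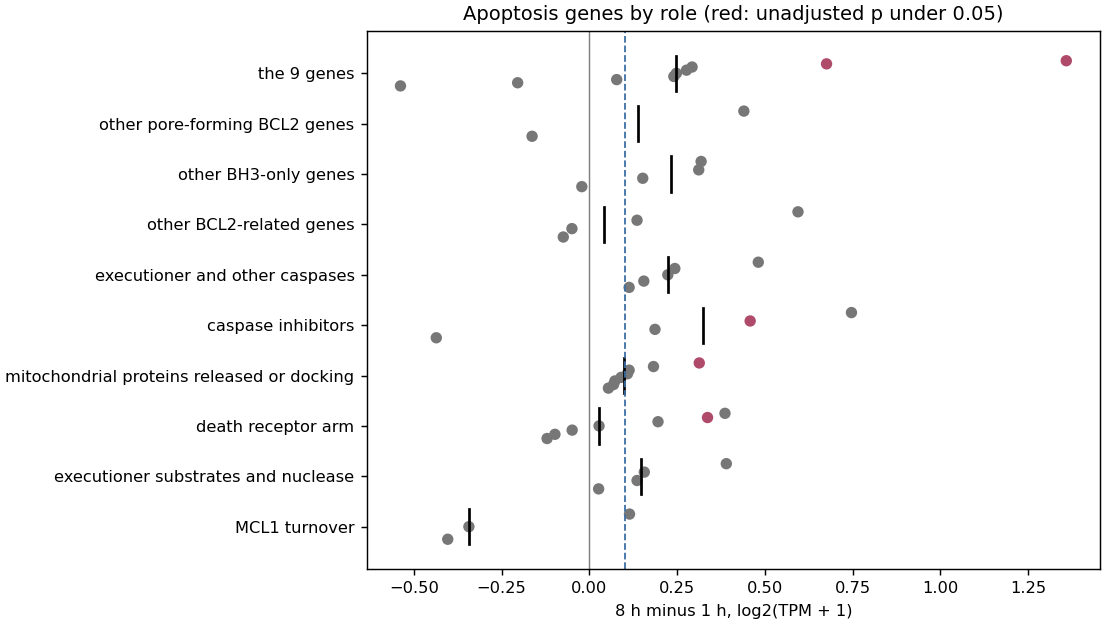
Difference between 8 h and 1 h (horizontal axis, log2(TPM + 1)) of the 9 genes and of the 41 pathway genes tested, one row per role, with black bars at row medians, a dashed line at the median of all genes (0.10) and red for an unadjusted p under 0.05 by limma. The 2 red points of the 9 genes are Casp9 at 0.68 and Bcl2l2 at 1.36, and no point was called.

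For each of the 9 genes the most similar profile was sought among the other 8 and the 41 pathway genes, as the smallest mean absolute difference of centred log2(TPM + 1) over the 5 libraries. Apaf1 was nearest to Tnfrsf10b (0.0316), Mcl1 and Bid were nearest to each other (0.0443), and Bcl2 was nearest to the caspase gene Casp2 (0.0692). Bak1 and Bcl2l11 were both nearest to Bad (0.0761 and 0.0957), Bcl2l1 to Birc6 (0.144) and Casp9 to Parp1 (0.151). Bcl2l2 was the farthest from its nearest gene, Casp8 (0.515). This distance grows with the spread of a gene, and Bcl2l2 had the largest mean absolute deviation from its own mean (0.675). For Bcl2l11 that deviation was 0.132, so small distances partly reflect flat profiles. These are descriptions over 5 libraries that differ in series and depth, with 49 candidates for each gene and no test.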

How the data were processed

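Sequencing libraries were stranded and poly-A selected. The authors mapped reads to GRCm38 with STAR (nf-core/rnaseq workflow) and counted over genes with featureCounts, with no version stated in the methods. The deposited counts are whole and unnormalized, cover 7599 genes after an unstated filter, and sum to between 13988166 and 18572154 per column. The deposited gene tables hold TPM, FPKM and mean coverage, the last a signal per base, and FPKM served only for a depth ratio. TPM was summed per gene identifier. Genes averaging 1 TPM or more were tested with limma 3.58.1 (intensity trend, pseudocount 1), and counts with edgeR 4.0.16 (TMM, filterByExpr) in R 4.3.3, both with Benjamini-Hochberg adjustment over all genes tested. Both fits were also run on simulated data. There the TPM spread was set below that observed, the count spread was fixed and no series effect was included. Those runs therefore do not show how the fits perform on these libraries. Alternatives were DESeq2 1.42.0, limma-voom, other scalings, filters, pseudocounts and thresholds, the series as a term, series 1 alone and leaving out each library. The lone 8 h library of series 1 is there assumed to vary like the 1 h libraries. Named pathway genes were those with an unadjusted p under 0.05, the most abundant of each role, those listed at 0 and the nearest profile of each of the 9, and Pabpn1 and Top2a were added after their values were seen. The most abundant gene of one role is not reported here. The genes and lists were chosen with earlier results of these data known. Sequences are from GENCODE vM21, with coordinates identical to the tables for the genes described.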

Additional observations from a re-analysis of the deposited data

How the results depend on the processing

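No gene of the 9 was called under any alternative in either table. The number of genes called from TPM was 6, against 0 with no filter on low TPM (2371 at an unadjusted p under 0.05 by limma), 19 with the series as a term, 2 at an adjusted p of 0.01, and 0 to 573 when leaving out each library. The 573 came without 8 h replicate 14, which leaves only series 2 at 8 h, and 1 gene was called without 8 h replicate 13. The settings without 1 h replicate 1, 1 h replicate 2 and 8 h replicate 15 called 0 genes, with 767, 668 and 850 at an unadjusted p under 0.05 by limma. Pathway genes called ranged from 0 to 1, with Birc5 called without 8 h replicate 14. In TPM the sign turned for Bcl2 (-0.019) and Bcl2l1 (0.12) with the series as a term, and for Bak1 with median-ratio scaling (-0.035). Series 1 alone gives the same differences as the series term, because series 2 holds no 1 h library. Leaving out each library gave -0.13 to 0.29 for Bak1 and -0.41 to 0.0030 for Bcl2l11. In counts the series as a term gave 0.071 for Bcl2l1, -0.22 for Mcl1 and -0.23 for Apaf1, and it raised Bcl2l11 from 0.23 to 1.00 (adjusted p = 0.589, edgeR) and Bid from 0.31 to 0.71 (adjusted p = 0.844, edgeR), where series assignment is uncertain. Leaving out each column gave -0.21 to 0.058 for Bcl2l1, -0.048 to 0.14 for Mcl1, -0.38 to 0.52 for Bcl2l11 and -0.031 to 0.17 for Apaf1. The cause was not tested. The differences of Mcl1, Bcl2l2, Bid, Apaf1 and Casp9 in TPM kept their direction in all 10 alternatives. These are not 10 separate checks, since the series term and series 1 alone give the same differences. Leaving out the filter on low TPM also leaves each difference unchanged. No paired analysis was possible because the groups share no replicate number.

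Casp9, Bid and Bcl2l11 rest on the lowest coverage among the 9 genes, except in 1 h replicate 2. There the coverage of Bcl2l2 was 10.8, below that of Casp9 (17.3) and Bcl2l11 (16.1). The spread of the 1 h group, with 2 libraries, is poorly known. With the TPM of Gm20521 added, the difference of Bcl2l2 was 0.76 in place of 1.36, and how reads were divided between these genes was not tested.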
